A study of Mus musculus with 26 samples.

Results

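Rab GTPases are small proteins that switch between an active GTP-bound form and an inactive GDP-bound form and give each membrane compartment of the cell its identity. They were described here across the mammary gland arrays of the series. Members were the genes with a single annotated symbol made of Rab, a number and at most 1 letter, and where a gene had several probe sets, the one with the highest mean across the 26 arrays was read. The rule found 59 genes, carried by 132 probe sets, among 18193 genes and 45037 probe sets in all. A probe set is a group of short oligonucleotides that report 1 transcript, and its level is given as the authors' deposited log2 value, so that a difference of 1 is a doubling.

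The arrays came from 6 groups of mice, with 1 array for each sample of inguinal mammary gland. At lactation day 9 there were 5 AQ and 5 AC arrays of an Advanced Intercross Line (AIL), the generation 14 offspring of a CBA/CaH by QSi5 cross, and 3 QSi5 and 3 CBA/CaH arrays. At pregnancy day 12 there were 5 QSi5 and 5 CBA/CaH arrays. QSi5 and CBA/CaH are the parental strains of the intercross. The meaning of the codes AC and AQ is not given in the labels, which name no genetic modification or treatment in any group. They also do not say whether a sample was 1 animal or several, so the p-values measure the spread between these samples. The study compared lactation with pregnancy in each parental strain, QSi5 with CBA/CaH at each stage, and the intercross with each parental strain at lactation.

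In a secretory epithelial cell, Rab1 and Rab2 proteins act between the endoplasmic reticulum and the Golgi, Rab3, Rab26, Rab27 and Rab37 proteins serve the regulated release of secretory granules, and Rab5, Rab4, Rab21 and Rab22 proteins work on early endosomes. Rab8, Rab10, Rab11, Rab25 and Rab35 carry cargo to the apical surface or back to it from recycling endosomes, Rab7 and Rab9 serve late endosomes, and Rab18 sits on lipid droplets and the endoplasmic reticulum. The lactating gland secretes milk proteins by exocytosis at the apical membrane and releases milk fat as lipid droplets wrapped in that membrane. Exchange factors load a Rab with GTP, GTPase-activating proteins end its active state, and effectors are the proteins that bind the active form.

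Members differed in how well they were measured. Of the 59 genes, 21 had 1 probe set and 38 had several, up to 7, and 6 genes had a mean under 5. These were Rab3c, Rab9b, Rab33a, Rab37, Rab39 and Rab40b. Marker genes of the gland moved with stage: of 11 luminal epithelial genes 10 were lower at lactation in QSi5 and 9 in CBA/CaH, while of 10 milk protein genes 7 were higher in QSi5 and 6 in CBA/CaH. The median luminal marker, centred on all arrays, lay between -1.22 and -1.02 in lactating QSi5 glands, against 0.66 to 1.82 in pregnant QSi5 glands. It lay between -1.08 and -0.18 in lactating CBA/CaH glands, against 0.93 to 1.21 in pregnant CBA/CaH glands. Of 8 fibroblast genes 5 were lower and 1 higher at lactation in QSi5 and 6 were lower in CBA/CaH, of 7 endothelial genes 5 were lower in each strain, and of 7 B and plasma cell genes 6 were higher in QSi5 and 2 in CBA/CaH. Of 9 white adipocyte genes 3 were lower and 1 higher in QSi5, and 6 lower and 1 higher in CBA/CaH. Of 10 myoepithelial genes 8 were lower in QSi5, and 7 were lower and 1 higher in CBA/CaH. Of 9 macrophage and dendritic cell genes 4 were lower in QSi5 and 5 in CBA/CaH. In whole tissue, fewer cells of a type and less RNA per cell cannot be told apart, and the part of these markers in the results below was not tested. By 4 measures, the skeletal muscle, brown adipocyte and B and plasma cell markers and the Gapdh 3' minus 5' value, 7 of the 26 arrays stood apart: pregnant QSi5 arrays 3 and 5 and AIL AC array 1 in skeletal muscle genes, pregnant CBA/CaH arrays 3 and 5 in brown adipocyte genes, pregnant QSi5 array 4 in the Gapdh value, and lactating QSi5 array 2 in B and plasma cell genes. Of the lists outside those measures, pregnant CBA/CaH array 4 had a median fibroblast marker of 2.09, where its group's median was 0.57, and a median macrophage marker of 1.49, where its group's was 0.16. It was kept in the fits without the arrays that stood apart. With it alone left out, 13 members were higher and 21 lower at lactation in CBA/CaH. The shares over all genes were not counted in that fit.

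At lactation 8 of 9 Rab genes of regulated secretion were higher in QSi5 and 6 in CBA/CaH as deposited, and 0 were lower. Under 3 other scalings 6 were higher in QSi5 and 3 or 4 in CBA/CaH. Several of these genes were dim. As deposited, the 6 members with a mean under 5 all gave positive differences in both strains, whatever their role. The part of signal level in the contrast between roles was not tested. Rab18 rose in both strains. Of 12 early endosomal Rab genes 7 were lower in QSi5 and 8 in CBA/CaH as deposited, a count that shrank to 4 in each strain under 2 other scalings. In QSi5, 18 members rose and 24 fell, and 17 did not pass the test; 65.7% of all genes changed in that comparison, 33% upward and 32.7% downward. In CBA/CaH, 15 rose, 23 fell and 21 did not pass, where 60% of all genes changed, 30.4% upward and 29.5% downward. In both strains 15 rose, against 26.5% of all genes, and 20 fell, against 27% of all genes; 0 went opposite ways, against 0.0495% of all genes. The median difference of the members was 0.02 in QSi5 and -0.14 in CBA/CaH, beside 0.04 in QSi5 and 0.05 in CBA/CaH over all genes. Lactation and pregnancy arrays did not overlap for 38 members in QSi5 (57.3% of all genes) and 41 in CBA/CaH (58.5% of all genes). These totals were close to the background. Without the arrays that stood apart, 17 rose and 19 fell in QSi5, and 19 rose and 26 fell in CBA/CaH. The shares over all genes were not counted without these arrays, so these counts have no background beside them. Leaving out a single array ended 9 of the calls in CBA/CaH (Rab3a, Rab4a, Rab6b, Rab17, Rab23, Rab30, Rab33b, Rab37 and Rab44) and 8 in QSi5 (Rab2a, Rab4a, Rab7, Rab11a, Rab22a, Rab23, Rab33a and Rab38).

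**Figure D1:**
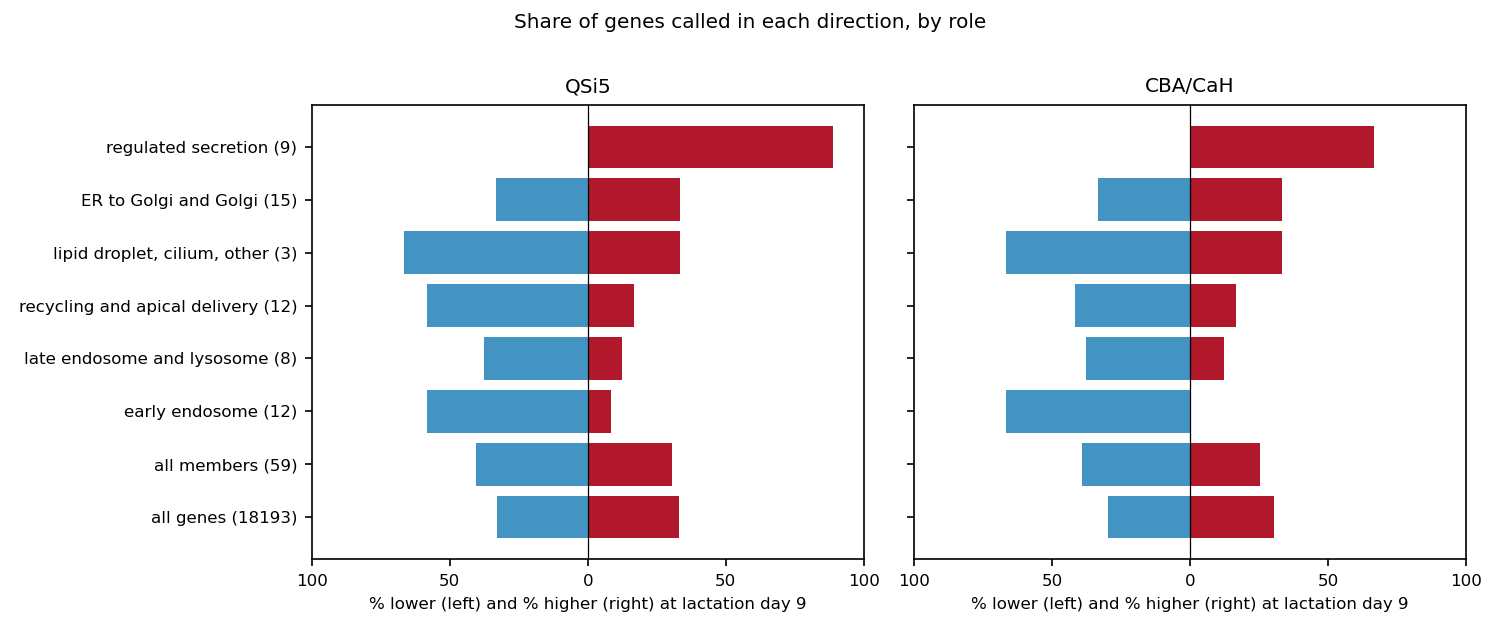
Share of genes called higher (red, right of 0) and lower (blue, left of 0) at lactation day 9 than at pregnancy day 12, in percent of the genes in each role, with the number of genes in brackets, for QSi5 (left panel) and CBA/CaH (right panel). Of 9 regulated-secretion genes 8 were higher in QSi5 and 6 in CBA/CaH and 0 were lower. With equal array medians, quantile normalization or cyclic loess, 6 were higher in QSi5 and 3 or 4 in CBA/CaH. Of 12 early endosomal genes 7 were lower in QSi5 and 8 in CBA/CaH, counts that were 4 in each strain under quantile normalization and cyclic loess.

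The split between higher and lower depends on how the arrays are scaled. The median over all probe sets was 0.19 higher at lactation in QSi5 and 0.17 higher in CBA/CaH. With array medians set equal, 11 members were higher and 26 lower in QSi5, and 11 were higher and 28 lower in CBA/CaH. Of all genes, 21.4% were then higher and 38.4% lower in QSi5, and 20.3% higher and 34.1% lower in CBA/CaH. After quantile normalization of the deposited values, 25 members were higher and 13 lower in QSi5, and 20 were higher and 11 lower in CBA/CaH. The shares over all genes were 30.4% higher and 23.2% lower in QSi5, and 28.5% higher and 20.8% lower in CBA/CaH. Cyclic loess gave 24 members higher and 15 lower in QSi5, and 20 higher and 12 lower in CBA/CaH. Beside these, 24.9% of all genes were higher and 25.4% lower in QSi5, and 23% higher and 22.3% lower in CBA/CaH. The split over all genes thus moved with the scaling as well. Of the 35 members called the same way in both strains, 14 were called that way under all 3 other scalings: Rab3b, Rab6b, Rab18, Rab26, Rab27a and Rab36 higher, and Rab2b, Rab8b, Rab20, Rab21, Rab23, Rab24, Rab31 and Rab42 lower. The rest of the 35 lost the call in some strain under some of these scalings. By role, regulated-secretion genes gave 6 higher and 0 lower in QSi5 under each of the 3 scalings, and in CBA/CaH 3 higher with array medians set equal and 4 with quantile normalization or cyclic loess, with 0 lower. Early endosomal genes gave 0 higher and 7 lower in QSi5 and 0 higher and 8 lower in CBA/CaH with array medians set equal. With quantile normalization they gave 4 higher and 4 lower in QSi5 and 2 higher and 4 lower in CBA/CaH, and with cyclic loess 5 higher and 4 lower in QSi5 and 2 higher and 4 lower in CBA/CaH. Recycling and apical delivery genes gave 4 higher and 3 lower in QSi5 and 5 higher and 2 lower in CBA/CaH with quantile normalization. With cyclic loess they gave 3 higher and 5 lower in QSi5 and 5 higher and 2 lower in CBA/CaH. With array medians set equal they gave 1 higher and 8 lower in QSi5 and 2 higher and 6 lower in CBA/CaH.

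**Figure D2:**
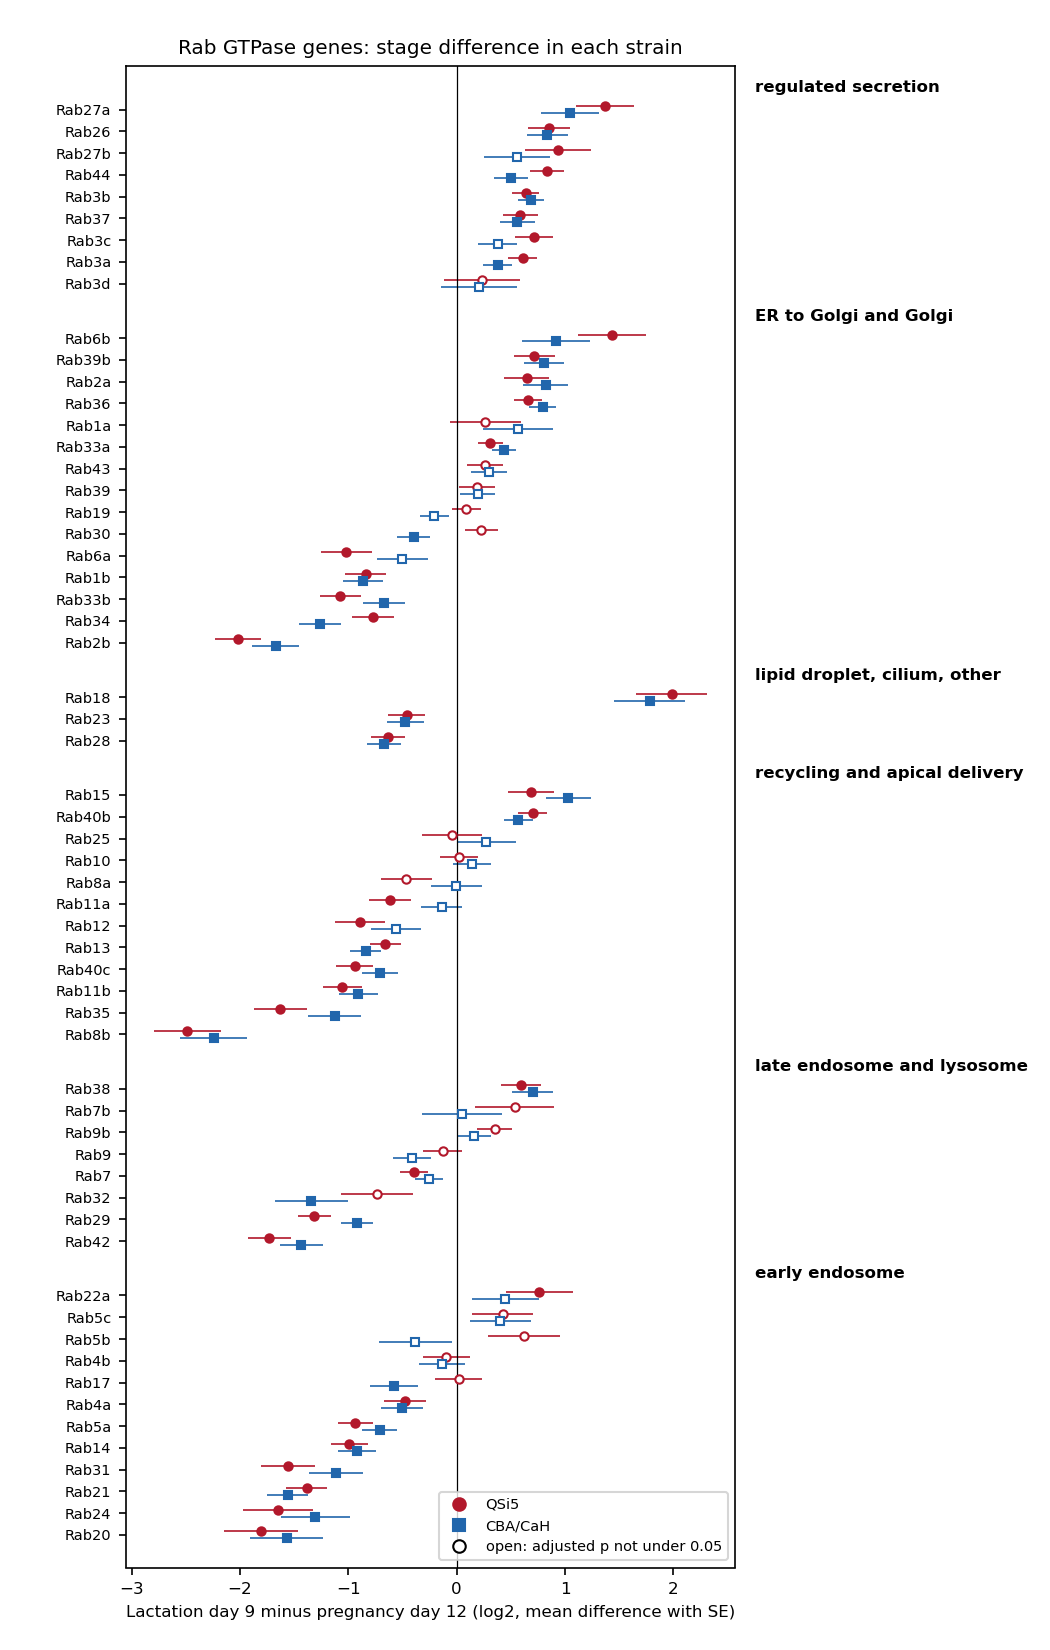
Lactation day 9 minus pregnancy day 12 for each of the 59 genes, in log2 units with the standard error, for QSi5 (red circles) and CBA/CaH (blue squares), grouped by role; open symbols did not pass the adjusted p of 0.05. The values run from -2.49 for Rab8b to 1.99 for Rab18 in QSi5, and the regulated-secretion genes all lie right of 0.

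Rab18 had the largest rise of the family. Its level was 11.93, 11.71 and 11.83 in lactating QSi5 glands, against 10.10, 9.99, 10.30, 8.51 and 10.27 in pregnant QSi5 glands. Lactating CBA/CaH glands had 11.45, 12.05 and 11.73, against 9.85, 10.30, 9.81, 10.33 and 9.52 in pregnant CBA/CaH glands. Every lactation array was above every pregnancy array, and pregnant QSi5 array 4, the array with the high Gapdh value, was the lowest of all. The rise was 1.99 (SE 0.33, adjusted p = 0.000125) in QSi5, or 3.96-fold, and 1.78 (SE 0.33, adjusted p = 0.000413) in CBA/CaH, or 3.44-fold. Another Rab18 probe set rose in CBA/CaH (1.95, adjusted p = 0.0313) and did not pass in QSi5 (1.41, adjusted p = 0.0983). The other genes placed with it moved the opposite way: Rab23, which acts in the primary cilium, fell (-0.46 in QSi5 and -0.48 in CBA/CaH), and so did Rab28 (-0.63 in QSi5 and -0.67 in CBA/CaH), whose sign in QSi5 turned under quantile normalization and cyclic loess.

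Among the 9 regulated-secretion genes, 8 rose in QSi5 and 6 in CBA/CaH and 0 fell as deposited, with a median difference of 0.72 in QSi5 and 0.55 in CBA/CaH. Several were dim: Rab3c, Rab37, Rab27b, Rab44 and Rab27a had means of 4.08 to 5.23, where array medians ran from 4.9957 to 5.2974. Rab27a, which docks secretory granules and melanosomes at the plasma membrane, read 6.07, 5.85 and 6.32 in lactating QSi5 glands, against 4.58, 4.49, 4.51, 5.70 and 4.28 in pregnant QSi5 glands. In CBA/CaH it read 5.55, 5.92 and 6.09 at lactation, against 4.96, 4.80, 5.21, 4.53 and 4.53 at pregnancy. Pregnant QSi5 array 4 was again apart from the other pregnancy arrays and remained under all QSi5 lactation arrays. The rise was 1.37 (SE 0.27, adjusted p = 0.000502) in QSi5 and 1.05 (SE 0.27, adjusted p = 0.00435) in CBA/CaH. Of its 3 other probe sets, 1 passed the test in QSi5 and 0 in CBA/CaH, the first with a rise of 0.64.

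Rab3b, a paralog of the synaptic vesicle protein Rab3a, was also separate between the stages. Lactating QSi5 glands had 6.85, 6.80 and 6.85, against 6.31, 6.15, 6.001, 6.23 and 6.28 in pregnant QSi5 glands, and lactating CBA/CaH glands had 6.73, 7.23 and 6.77, against 6.24, 6.24, 6.34, 6.16 and 6.14 in pregnant CBA/CaH glands. The groups did not overlap, and the rise was 0.64 (SE 0.12, adjusted p = 0.000463) in QSi5 and 0.69 (SE 0.12, adjusted p = 0.00033) in CBA/CaH. Rab26, known from the granules of exocrine acinar cells, ranged over 6.22 to 6.26 in lactating QSi5 glands, against 5.03 to 5.93 in pregnant QSi5 glands, a difference of 0.85 (SE 0.19, adjusted p = 0.00153). In CBA/CaH its rise was 0.84 (SE 0.19, adjusted p = 0.00214). Rab3a itself rose by less (0.61 in QSi5 and 0.38 in CBA/CaH), and its second probe set rose by 1.07 in QSi5 and 0.90 in CBA/CaH.

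Rab44, an atypically large member, rose (0.84 in QSi5 and 0.51 in CBA/CaH), as did Rab37, known from mast cell granules (0.59 in QSi5 and 0.56 in CBA/CaH). Under the 3 other scalings Rab37 was called in neither strain (0.14 to 0.36 in QSi5 and 0.18 to 0.38 in CBA/CaH), Rab44 was not called in CBA/CaH (0.15 to 0.33), and Rab27b was not called in QSi5 (0.51 to 0.72). Of 6 mast cell marker genes 5 were higher and 1 lower at lactation in QSi5, and 2 were higher and 1 lower in CBA/CaH; their part in these differences was not tested. Rab27b, the paralog of Rab27a, was higher in lactating QSi5 glands by 0.94 (SE 0.31, adjusted p = 0.0155) and gave 0.55 in CBA/CaH without passing, and another of its probe sets fell in QSi5 (-0.71). Rab3c rose in QSi5 (0.71) and gave 0.38 in CBA/CaH without passing. Rab3d, found on zymogen granules, gave 0.24 in QSi5 and 0.21 in CBA/CaH and passed in neither. Pregnant QSi5 array 5 read 7.52 for it, under the 8.77 to 9.46 of the other pregnant QSi5 arrays.

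**Figure D3:**
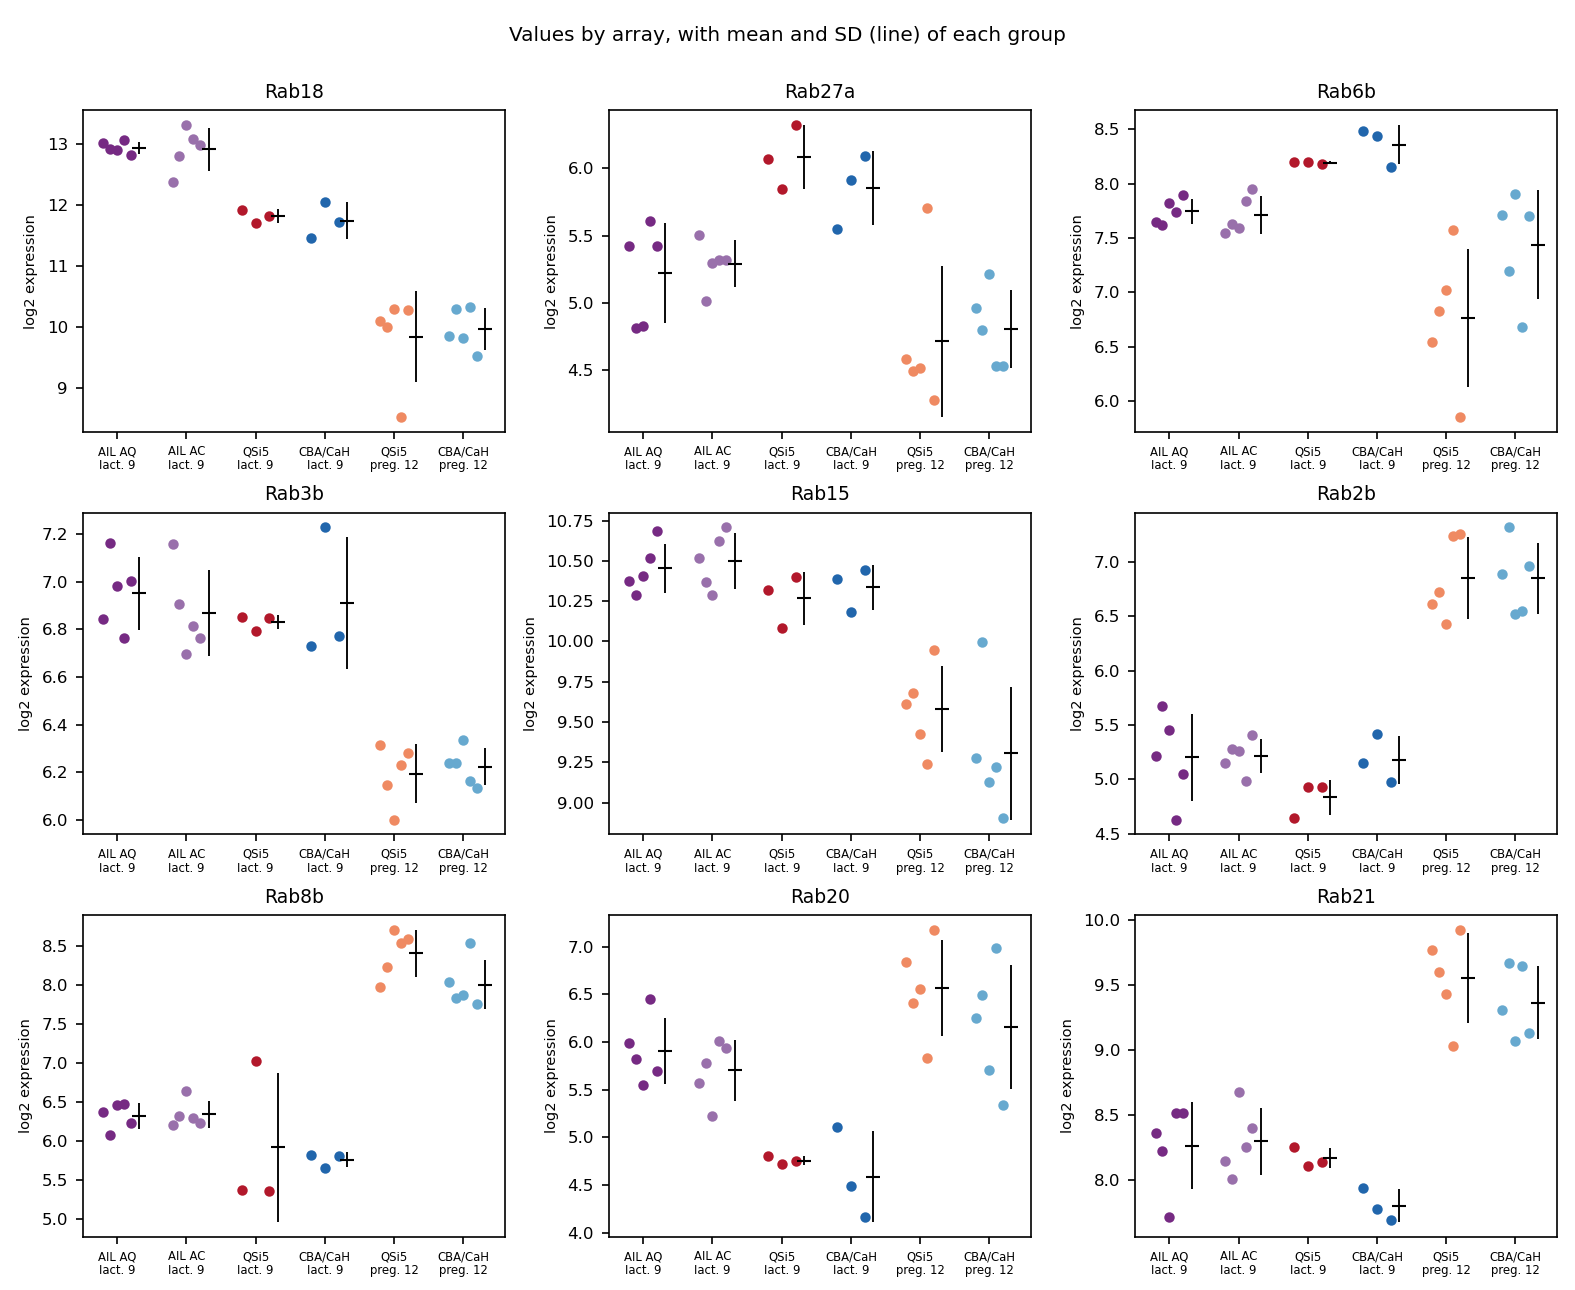
Log2 expression on every array for 9 genes (points; black line, mean and SD), with AIL AQ, AIL AC, QSi5 and CBA/CaH at lactation day 9 left of QSi5 and CBA/CaH at pregnancy day 12; each panel has its own vertical axis. Rab18, Rab3b and Rab15 lie higher on all lactation arrays than on all pregnancy arrays, Rab2b, Rab8b and Rab21 lie lower, Rab20 lies lower in the parental strains but overlaps pregnancy in the AIL, and lactating QSi5 array 2 stands apart for Rab8b at 7.02.

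As deposited, of the 12 early endosomal Rab genes, 1 rose and 7 fell in QSi5, and 0 rose and 8 fell in CBA/CaH, with a median difference of -0.71 in QSi5 and -0.65 in CBA/CaH. Rab21, which directs the uptake of integrins, read 8.26, 8.11 and 8.14 in lactating QSi5 glands, against 9.77, 9.60, 9.43, 9.03 and 9.93 in pregnant QSi5 glands. Lactating CBA/CaH glands had 7.94, 7.78 and 7.70, against 9.31, 9.67, 9.08, 9.65 and 9.13 in pregnant CBA/CaH glands. No lactation array reached a pregnancy array, and the differences were -1.38 (SE 0.19, adjusted p = 2.37e-05) in QSi5 and -1.56 (SE 0.19, adjusted p = 1.13e-05) in CBA/CaH. Rab20, linked to endosomes and phagosomes, read 4.81, 4.72 and 4.75 in lactating QSi5 glands, against 6.84, 6.41, 6.56, 5.83 and 7.18 in pregnant QSi5 glands, a difference of -1.81 (SE 0.34, adjusted p = 0.000368). It fell in CBA/CaH too (-1.57, SE 0.34, adjusted p = 0.00139), with 5.10, 4.50 and 4.16 at lactation, against 6.26, 6.50, 5.71, 6.98 and 5.34 at pregnancy. The groups were separate in both strains, though the pregnancy values were widely spread.

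Rab24, linked to autophagy, fell (-1.65, SE 0.32, adjusted p = 0.000483 in QSi5, -1.30, SE 0.32, adjusted p = 0.00337 in CBA/CaH), and its second probe set fell as well (-1.13 in QSi5 and -0.80 in CBA/CaH). Rab31, which acts between the trans-Golgi and endosomes, fell (-1.56, SE 0.25, adjusted p = 9.99e-05 in QSi5, -1.11, SE 0.25, adjusted p = 0.00186 in CBA/CaH), while another probe set of the gene rose (0.88 in QSi5 and 0.95 in CBA/CaH). As deposited, Rab5a, the best known regulator of early endosome fusion, fell (-0.94 in QSi5 and -0.71 in CBA/CaH), and Rab14 fell (-0.99 in QSi5 and -0.92 in CBA/CaH), with 3 of its 6 other probe sets also lower in each strain and 1 higher in QSi5 (0.66). Each was called under 1 of the 3 other scalings in each strain. Rab5a then gave -1.16 to -0.18 in QSi5 and -0.88 to -0.05 in CBA/CaH. Rab14 gave -1.21 to -0.32 in QSi5 and -1.09 to -0.31 in CBA/CaH. Rab4a, which returns cargo quickly from early endosomes, fell as deposited (-0.47 in QSi5 and -0.50 in CBA/CaH), but its sign turned under quantile normalization and cyclic loess. Rab22a rose in QSi5 (0.76) and gave 0.45 in CBA/CaH without passing, while another probe set of it fell in both strains (-1.64 in QSi5 and -1.44 in CBA/CaH) and a further one rose in both. Rab17, a Rab of epithelial transcytosis, fell in CBA/CaH (-0.58) with a sign that turned under the same scalings, and gave 0.02 in QSi5. Rab4b, Rab5b and Rab5c passed in neither strain.

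The largest fall of all was that of Rab8b, a paralog of the apical delivery factor Rab8a. Its level was 5.38, 7.02 and 5.35 in lactating QSi5 glands, against 7.97, 8.23, 8.71, 8.53 and 8.58 in pregnant QSi5 glands. Lactating CBA/CaH glands had 5.83, 5.65 and 5.80, against 8.04, 7.83, 7.87, 8.53 and 7.75 in pregnant CBA/CaH glands. Lactating QSi5 array 2, the one with high B and plasma cell genes, was the highest lactation array and still below every pregnancy array. The differences were -2.49 (SE 0.31, adjusted p = 1.04e-05) in QSi5, 5.6-fold lower, and -2.24 (SE 0.31, adjusted p = 3.78e-05) in CBA/CaH, 4.74-fold lower. A second Rab8b probe set rose (1.17 in QSi5 and 0.66 in CBA/CaH). Rab8a gave -0.47 in QSi5 and -0.01 in CBA/CaH and passed in neither, while 2 of its other probe sets rose in both strains.

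As deposited, of the 12 recycling and apical delivery genes, 2 rose and 7 fell in QSi5, and 2 rose and 5 fell in CBA/CaH. Rab15, an endosomal Rab, was the main exception among them: it read 10.32, 10.08 and 10.40 in lactating QSi5 glands, against 9.62, 9.68, 9.42, 9.24 and 9.95 in pregnant QSi5 glands, a rise of 0.69 (SE 0.21, adjusted p = 0.0103). In CBA/CaH it read 10.39, 10.18 and 10.44 at lactation, against 9.28, 9.997, 9.13, 9.22 and 8.90 at pregnancy, a rise of 1.03 (SE 0.21, adjusted p = 0.000847). Rab40b rose from a low level (0.70 in QSi5 and 0.57 in CBA/CaH), although another probe set of it fell in CBA/CaH (-1.18). Rab35, which returns surface receptors to the plasma membrane, fell (-1.63, SE 0.24, adjusted p = 5.4e-05 in QSi5, -1.13, SE 0.24, adjusted p = 0.0014 in CBA/CaH), as did Rab11b, a Rab of recycling endosomes (-1.06, SE 0.18, adjusted p = 0.000169 in QSi5, -0.91, SE 0.18, adjusted p = 0.00077 in CBA/CaH). Rab13, a Rab of tight junction assembly, fell (-0.66 in QSi5 and -0.84 in CBA/CaH), and so did Rab40c (-0.94 in QSi5 and -0.71 in CBA/CaH). Rab12 fell in QSi5 (-0.89) and gave -0.56 in CBA/CaH. Rab11a fell in QSi5 (-0.61) and gave -0.14 in CBA/CaH, with signs that turned under quantile normalization and cyclic loess; its second probe set fell by more in both strains (-2.32 in QSi5 and -1.91 in CBA/CaH). Rab10, known for carrying glucose transporters to the surface, gave 0.03 in QSi5 and 0.14 in CBA/CaH, and Rab25, an epithelial relative of Rab11, gave -0.04 in QSi5 and 0.27 in CBA/CaH; neither passed.

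As deposited, the 15 genes of the endoplasmic reticulum to Golgi route split evenly, with 5 higher and 5 lower in each strain. With array medians set equal, 3 were higher and 5 lower in QSi5, and 4 higher and 7 lower in CBA/CaH. Quantile normalization gave 6 higher and 2 lower in each strain. Cyclic loess gave 6 higher and 2 lower in QSi5, and 6 higher and 3 lower in CBA/CaH. Paralogs parted here. Rab2b read 4.65, 4.93 and 4.93 in lactating QSi5 glands, against 6.61, 6.72, 6.43, 7.24 and 7.26 in pregnant QSi5 glands, a difference of -2.02 (SE 0.22, adjusted p = 2.41e-06). In CBA/CaH it read 5.15, 5.41 and 4.97 at lactation, against 6.89, 7.32, 6.52, 6.55 and 6.96 at pregnancy, a difference of -1.67 (SE 0.22, adjusted p = 2.09e-05). Rab2a rose instead (0.65, SE 0.21, adjusted p = 0.0142 in QSi5, 0.82, SE 0.21, adjusted p = 0.00403 in CBA/CaH), with a call in QSi5 that was lost without lactation array 3 (0.58, adjusted p = 0.0573). Both genes carry probe sets that disagree: a Rab2a probe set fell (-1.40 in QSi5 and -1.18 in CBA/CaH) and a Rab2b probe set rose (0.995 in QSi5 and 0.56 in CBA/CaH).

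Rab6b, the paralog of the Golgi protein Rab6a that is best known from neurons, rose. It read 8.20, 8.20 and 8.18 in lactating QSi5 glands, against 6.54, 6.82, 7.02, 7.57 and 5.85 in pregnant QSi5 glands, a rise of 1.43 (SE 0.31, adjusted p = 0.00123). In CBA/CaH it read 8.49, 8.44 and 8.15 at lactation, against 7.71, 7.20, 7.91, 6.68 and 7.70 at pregnancy, a rise of 0.92 (SE 0.31, adjusted p = 0.0224). The lactation values lay close together and the pregnancy values were spread, with pregnant QSi5 array 5 the lowest. In CBA/CaH the call was lost without pregnancy array 4 (0.73, adjusted p = 0.052), lactation array 1 (0.86, adjusted p = 0.0709) or lactation array 2 (0.88, adjusted p = 0.0676). Rab6a fell in QSi5 (-1.02, SE 0.24, adjusted p = 0.00178) and gave -0.50 in CBA/CaH without passing. Rab1b, an essential Rab of export from the endoplasmic reticulum, fell (-0.84, SE 0.19, adjusted p = 0.00132 in QSi5, -0.86, SE 0.19, adjusted p = 0.00138 in CBA/CaH), whereas its paralog Rab1a gave 0.27 in QSi5 and 0.57 in CBA/CaH and did not pass. Under the other scalings Rab1b gave -1.06 to -0.08 in QSi5 and -1.04 to -0.21 in CBA/CaH, called under 1 of 3 in each. Rab6a in QSi5 was called under 1 of 3 (-1.24 to -0.26). Rab33b, which acts in the Golgi and in autophagy, fell (-1.07 in QSi5 and -0.67 in CBA/CaH), and Rab34, a Rab of the Golgi and the primary cilium, fell (-0.77, SE 0.19, adjusted p = 0.00318 in QSi5, -1.26, SE 0.19, adjusted p = 9.66e-05 in CBA/CaH). Of the 3 other scalings, 1 called Rab34 in QSi5 (-1.0 to -0.03) and 1 called Rab33b in CBA/CaH (-0.85 to -0.06). Rab39b (0.72 in QSi5 and 0.81 in CBA/CaH) and Rab36 (0.66 in QSi5 and 0.79 in CBA/CaH) rose, both other Rab36 probe sets rising as well, and Rab33a rose from a low level (0.31 in QSi5 and 0.44 in CBA/CaH), with no call in either strain under the 3 other scalings (0.06 to 0.09 in QSi5 and 0.21 to 0.26 in CBA/CaH). Rab30 fell in CBA/CaH (-0.40) and gave 0.23 in QSi5; Rab19, Rab39 and Rab43 passed in neither strain.

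Late endosomal and lysosomal members were fewer, with 1 higher and 3 lower of 8 in each strain as deposited. With array medians set equal, 0 were higher and 4 lower in QSi5, and 1 higher and 5 lower in CBA/CaH. Quantile normalization gave 4 higher and 3 lower in QSi5, and 2 of each in CBA/CaH. Cyclic loess gave 3 of each in QSi5 and 2 of each in CBA/CaH. Rab42 fell (-1.73, SE 0.20, adjusted p = 4.72e-06 in QSi5, -1.43, SE 0.20, adjusted p = 3.85e-05 in CBA/CaH), and so did Rab29, known for recruiting the kinase LRRK2 to membranes (-1.31, SE 0.15, adjusted p = 4.33e-06 in QSi5, -0.92, SE 0.15, adjusted p = 0.000148 in CBA/CaH). In CBA/CaH Rab29 was called under 1 of the 3 other scalings (-1.09 to -0.3). The melanosome pair Rab32 and Rab38 parted: Rab32 was lower in lactating CBA/CaH glands (-1.34, SE 0.34, adjusted p = 0.00384) and gave -0.73 in QSi5 without passing, while Rab38 rose (0.59, SE 0.19, adjusted p = 0.0122 in QSi5, 0.70, SE 0.19, adjusted p = 0.00533 in CBA/CaH). The other Rab38 probe set fell (-0.65 in QSi5 and -0.54 in CBA/CaH), so the direction of Rab38 depends on the probe set read. Rab7, the main Rab of late endosomes, fell in QSi5 (-0.39) and gave -0.26 in CBA/CaH, with signs that turned under quantile normalization and cyclic loess. Rab7b, Rab9 and Rab9b passed in neither strain. Over all members with several probe sets, another probe set was called opposite to the one read for 8 of 38 genes in QSi5 and 6 of 38 in CBA/CaH.

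To show the upstream sequence of the genes that moved most, promoters are printed for the members with the largest rises and falls among those with an entry, and for Rab5b, which differed most between the strains. These genes were chosen after their values were seen. The sequences run from 250 bases before to 50 bases after the gene start, come from RefSeq on GRCm38.p6, and were found for 48 of the 59 genes. The capitals mark the motifs searched on both strands: the GC box (GGGCGG), the E-box CACGTG, the CCAAT box (CCAAT), the STAT site TTCNNNGAA, the cAMP response element TGACGTCA, the NRF1 site and the TATA box (TATAAA).
Rab27a, chr9:73044560-73044859, plus strand: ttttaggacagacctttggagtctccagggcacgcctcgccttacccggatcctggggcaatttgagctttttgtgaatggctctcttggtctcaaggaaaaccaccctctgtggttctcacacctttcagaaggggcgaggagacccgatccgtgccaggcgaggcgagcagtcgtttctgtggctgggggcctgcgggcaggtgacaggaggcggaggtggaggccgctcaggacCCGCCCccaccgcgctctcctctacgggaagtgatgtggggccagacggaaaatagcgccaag
Rab6b, chr9:103111824-103112123, plus strand: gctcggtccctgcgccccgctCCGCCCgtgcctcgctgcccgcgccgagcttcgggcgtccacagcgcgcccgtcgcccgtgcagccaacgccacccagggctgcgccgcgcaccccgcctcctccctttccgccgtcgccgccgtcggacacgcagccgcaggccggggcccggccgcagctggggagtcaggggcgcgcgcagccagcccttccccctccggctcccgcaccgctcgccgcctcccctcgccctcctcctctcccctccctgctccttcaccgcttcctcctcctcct
Rab15, chr12:76822475-76822774, minus strand: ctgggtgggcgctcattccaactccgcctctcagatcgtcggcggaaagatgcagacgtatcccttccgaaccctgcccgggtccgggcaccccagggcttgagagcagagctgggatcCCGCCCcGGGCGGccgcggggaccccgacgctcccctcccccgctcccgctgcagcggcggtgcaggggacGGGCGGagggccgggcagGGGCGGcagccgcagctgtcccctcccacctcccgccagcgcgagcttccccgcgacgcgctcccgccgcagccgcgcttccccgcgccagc
Rab8b, chr9:66919656-66919955, minus strand: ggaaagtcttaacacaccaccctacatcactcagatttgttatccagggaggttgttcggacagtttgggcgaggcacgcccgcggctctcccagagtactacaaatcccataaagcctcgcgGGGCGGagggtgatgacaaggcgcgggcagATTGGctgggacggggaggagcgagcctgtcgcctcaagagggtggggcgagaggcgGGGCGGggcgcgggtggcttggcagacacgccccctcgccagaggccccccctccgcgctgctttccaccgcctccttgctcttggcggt
Rab2b, chr14:52279346-52279645, minus strand: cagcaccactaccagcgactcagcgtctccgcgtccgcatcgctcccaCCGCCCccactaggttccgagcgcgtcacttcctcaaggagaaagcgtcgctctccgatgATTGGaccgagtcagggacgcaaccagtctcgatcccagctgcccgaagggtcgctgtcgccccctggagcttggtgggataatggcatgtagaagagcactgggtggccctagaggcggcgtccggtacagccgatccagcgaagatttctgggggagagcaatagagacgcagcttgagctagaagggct
Rab20, chr8:11478591-11478890, minus strand: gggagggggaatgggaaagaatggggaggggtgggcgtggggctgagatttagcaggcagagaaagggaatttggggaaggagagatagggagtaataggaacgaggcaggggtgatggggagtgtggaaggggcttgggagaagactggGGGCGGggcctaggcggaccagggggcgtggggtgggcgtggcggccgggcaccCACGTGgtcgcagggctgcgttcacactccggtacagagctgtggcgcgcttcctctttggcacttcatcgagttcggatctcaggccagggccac
Rab5b, chr10:128696219-128696518, minus strand: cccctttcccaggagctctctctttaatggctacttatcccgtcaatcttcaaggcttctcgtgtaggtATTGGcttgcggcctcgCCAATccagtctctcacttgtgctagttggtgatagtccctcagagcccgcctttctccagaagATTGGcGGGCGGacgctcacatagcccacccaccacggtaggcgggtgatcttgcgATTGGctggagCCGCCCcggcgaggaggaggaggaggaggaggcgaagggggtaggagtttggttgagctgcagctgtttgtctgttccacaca
Of these motifs, the rising genes Rab27a, Rab6b and Rab15 held GC boxes alone, the falling genes Rab8b and Rab2b held a GC box and a CCAAT box, Rab20 held a GC box and an E-box that begins at position -46 from its start, and Rab5b held GC and CCAAT boxes. A gene with several listed promoters was read from the first. GC boxes stood in 70.8% of the 48 Rab promoters, each from a different gene. Over all 32851 listed promoters of the same length the share was 35.7%. That set keeps every listed promoter of a gene, so it was not built as the Rab set was. The gap between these shares therefore cannot be read as a trait of Rab promoters. The same limit holds for the shares over all promoters given below for the E-box and the STAT site. They stood in 6 of the 8 promoters of genes that rose in both strains and in 14 of the 19 of genes that fell in both. The E-box stood in 5 of the 19 promoters of genes that fell in both strains, namely Rab5a, Rab20, Rab21, Rab23 and Rab24, in 0 of the 8 that rose and in 0 of the other 21. Over all promoters its share was 7.15%. The STAT site stood in 4 Rab promoters, Rab11a, Rab19, Rab25 and Rab34, or 8.33%, beside 8.3% of all promoters. These matches describe the letters of the window and were not tested against the differences.

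Genes that act on Rab proteins were read from 5 lists, beside a background of 33% of all genes higher and 32.7% lower at lactation in QSi5 and 30.4% higher and 29.5% lower in CBA/CaH. Of 14 measured genes of the Rab membrane cycle, 2 rose and 9 fell in QSi5, and 2 rose and 7 fell in CBA/CaH. Yipf4 and Yipf2, membrane proteins of the Golgi, fell (-2.07 in QSi5 and -1.69 in CBA/CaH for Yipf4; -2.04 in QSi5 and -1.45 in CBA/CaH for Yipf2), and so did Chml, the escort protein that presents new Rabs for prenylation (-2.02 in QSi5 and -1.29 in CBA/CaH). Rabac1, a Golgi protein that binds prenylated Rabs, rose (1.03 in QSi5 and 1.18 in CBA/CaH), while the escort protein Chm gave -0.45 in QSi5 and 0.30 in CBA/CaH and the prenyltransferase subunit Rabggtb gave -0.48 in QSi5 and -0.42 in CBA/CaH without passing. Of 9 exocyst subunits, which tether secretory vesicles to the plasma membrane, 0 rose and 5 fell in each strain, led by Exoc2 (-1.39 in QSi5 and -1.16 in CBA/CaH) and Exoc3 (-1.54 in QSi5 and -0.80 in CBA/CaH). Exoc4 gave 0.43 in QSi5 and -0.20 in CBA/CaH and Exoc6 0.24 in QSi5 and 0.07 in CBA/CaH, neither passing.

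Of 37 exchange factors, 7 rose and 18 fell in QSi5, and 5 rose and 18 fell in CBA/CaH. Dennd4c, an exchange factor for Rab10, fell (-1.87 in QSi5 and -1.67 in CBA/CaH), as did Gapvd1, which acts on Rab5 (-1.26 in QSi5 and -2.06 in CBA/CaH). C9orf72, part of a complex with Smcr8, fell (-1.76 in QSi5 and -1.48 in CBA/CaH) and Dennd6b rose (1.92 in QSi5 and 1.67 in CBA/CaH), while Rabgef1 (-0.51 in QSi5 and -0.47 in CBA/CaH) and Rin3 (-0.32 in QSi5 and -0.04 in CBA/CaH) did not pass. Of 39 GTPase-activating proteins, 10 rose and 14 fell in QSi5, and 6 rose and 10 fell in CBA/CaH. Tbc1d24 rose (2.21 in QSi5 and 1.83 in CBA/CaH) and Tbc1d2b (-2.16 in QSi5 and -1.81 in CBA/CaH), Usp6nl (-1.79 in QSi5 and -1.13 in CBA/CaH) and Tbc1d10b (-1.71 in QSi5 and -1.19 in CBA/CaH) fell, while Tbc1d1 gave -0.38 in QSi5 and -0.39 in CBA/CaH without passing. Of 58 measured effectors, 10 rose and 20 fell in QSi5, and 9 rose and 19 fell in CBA/CaH. The Rab5 effector Appl1 (-2.52 in QSi5 and -2.25 in CBA/CaH), the Rab6-binding mitotic kinesin Kif20a (-2.74 in QSi5 and -1.62 in CBA/CaH) and Rilpl1 (-1.98 in QSi5 and -1.73 in CBA/CaH) fell, whereas Rph3al, a Rab3 and Rab27 effector of granule secretion, rose (2.10 in QSi5 and 2.10 in CBA/CaH). The effectors Rbsn and Rufy2 passed in neither strain. The split within these lists also moved with the scaling. With quantile normalization, the membrane cycle list had 2 higher and 4 lower in QSi5 and 2 higher and 2 lower in CBA/CaH, the exocyst 2 higher and 3 lower in QSi5 and 2 higher and 1 lower in CBA/CaH, and exchange factors 12 higher and 9 lower in QSi5 and 8 higher and 11 lower in CBA/CaH. GTPase-activating proteins then had 14 higher and 9 lower in QSi5 and 15 higher and 8 lower in CBA/CaH, and effectors 18 higher and 10 lower in QSi5 and 15 higher and 12 lower in CBA/CaH. Over all genes this scaling gave 30.4% higher and 23.2% lower in QSi5, and 28.5% higher and 20.8% lower in CBA/CaH. With cyclic loess, exchange factors had 8 higher and 12 lower in QSi5 and 7 higher and 11 lower in CBA/CaH. Effectors then had 12 higher and 16 lower in QSi5 and 12 higher and 13 lower in CBA/CaH. GTPase-activating proteins had 11 higher and 10 lower in QSi5 and 11 higher and 8 lower in CBA/CaH. Cyclic loess gave the membrane cycle list 2 higher and 4 lower in QSi5 and 2 higher and 3 lower in CBA/CaH. It gave the exocyst 2 higher and 4 lower in QSi5 and 2 of each in CBA/CaH. Over all genes it gave 24.9% higher and 25.4% lower in QSi5, and 23% higher and 22.3% lower in CBA/CaH. With array medians set equal, lower genes outnumbered higher ones in all 5 lists in both strains. The same held over all genes, with 21.4% higher and 38.4% lower in QSi5, and 20.3% higher and 34.1% lower in CBA/CaH.

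The change with stage was not shown to differ between the strains for any member. The test of that difference, the strain by stage interaction in limma, called 0 of 59 members, where 0.0989% of all genes were called. At an unadjusted p under 0.05, 1 member passed, Rab30 (0.62, SE 0.22, adjusted p = 0.736). For the 10 members called in 1 strain and not in the other, a difference between the strains was therefore not shown.

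Between the strains at pregnancy, Rab5b was far lower in QSi5. Rab5b is 1 of the Rab5 paralogs of early endosomes. It read 5.31, 5.31, 5.33, 5.38 and 5.21 in pregnant QSi5 glands, against 7.56, 7.36, 7.62, 8.36 and 6.54 in pregnant CBA/CaH glands. The QSi5 arrays lay close together (SD 0.0633, n = 5), and all lay below the lowest CBA/CaH array. The difference was -2.18 (SE 0.29, adjusted p = 0.000578), or 4.53-fold lower. It was called under each of the 13 other settings and without each of the 10 pregnancy arrays in turn. In all, 2 of 59 members were called in this comparison, where 1.22% of all genes were; these were also the 2 members whose arrays did not overlap, beside 2.3% of all genes. The other was Rab29, higher in QSi5 (0.57, SE 0.13, adjusted p = 0.043), with 8.91 to 9.24 in pregnant QSi5 glands, against 8.19 to 8.74 in pregnant CBA/CaH glands. Its call was lost in most settings, among them quantile normalization, the fit without the arrays that stood apart, and the fit without any 1 of 9 of the 10 arrays.

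At lactation Rab5b read 6.40, 5.16 and 6.24 in QSi5 glands, against 7.32, 7.43 and 6.58 in CBA/CaH glands. The groups did not overlap, but the difference did not pass the test (-1.18, SE 0.37, adjusted p = 0.503), and it was not shown to differ from that at pregnancy (interaction 1.003, SE 0.47, adjusted p = 0.933). In the intercross the gene was widely spread, with 7.46, 8.18, 5.88, 5.48 and 7.76 on the AQ arrays and 7.98, 6.58, 5.78, 8.64 and 5.25 on the AC arrays. Its SD over the 10 AIL arrays was 1.25, the highest of the 59 members, whose median was 0.17 and whose next highest were 0.59 for Rab17 and 0.52 for Rab30. Pooled within the parental strains its SD was 0.58 at lactation and 0.46 at pregnancy. The second Rab5b probe set was not called at pregnancy (-0.09, adjusted p = 0.953). It read 3.63 to 4.56 on the pregnancy arrays, below all array medians, so its lack of a call says little. The 4 nearest measured genes on each side of Rab5b did not pass either, with differences at pregnancy from -0.07 for Suox to 0.38 for Erbb3.

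**Figure D4:**
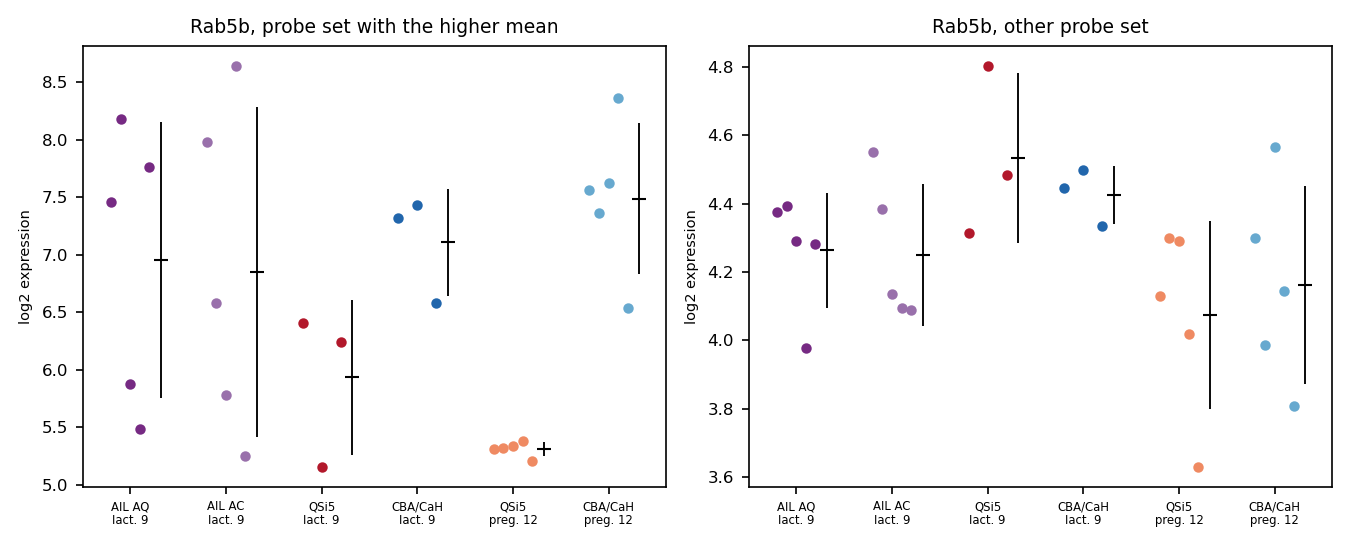
Log2 expression of the Rab5b probe set with the higher mean (left) and of the other Rab5b probe set (right) on every array, with mean and SD as black lines, AIL and lactation groups left of the pregnancy groups; the panels have different vertical axes. On the left the 5 pregnant QSi5 arrays sit between 5.21 and 5.38, and the AIL arrays spread from 5.25 to 8.64; on the right the strains overlap.

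At lactation 0 of 59 members differed between QSi5 and CBA/CaH, where 0.346% of all genes were called. At an unadjusted p under 0.05 limma gave 5 members: Rab5b, Rab6a and Rab33b were lower and Rab17 and Rab34 higher in QSi5. Between the strains the arrays did not overlap for 12 members at lactation, beside 13.3% of all genes, and 3 arrays a group limit this comparison. Of the genes that act with Rabs, the Rab27 effector Myrip (-0.99) and the Rab3 effector Rims2 (-0.56) were lower in QSi5 at pregnancy, and 0 of the 5 lists had a call at lactation.

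At lactation 10 Rab genes were higher in the intercross than in both parental strains, among them Rab18, Rab8a and Rab1a, and 5 were lower, among them Rab27a and Rab6b. Against QSi5, 14 members were higher and 8 lower, where 37.9% of all genes were called, 19.4% higher and 18.5% lower. Against CBA/CaH, 14 were higher and 5 lower, where 34.2% of all genes were called, 18% higher and 16.2% lower. The 2 comparisons share the AIL arrays. Higher than both strains were 10 members (13.1% of all genes): Rab1a, Rab1b, Rab8a, Rab10, Rab18, Rab20, Rab24, Rab25, Rab30 and Rab35. Lower than both were 5 (10.9% of all genes): Rab6b, Rab26, Rab27a, Rab38 and Rab43. With array medians set equal the counts were 21 higher and 5 lower against QSi5 and 19 higher and 3 lower against CBA/CaH. Of all genes, 24.7% were then higher and 9.86% lower against QSi5, and 22.2% higher and 9.63% lower against CBA/CaH. With quantile normalization the counts were 12 higher and 9 lower against QSi5 and 9 higher and 7 lower against CBA/CaH. The shares over all genes were 13.5% higher and 20% lower against QSi5, and 12.2% higher and 18.6% lower against CBA/CaH. Under all 3 other scalings and against both strains, Rab1a, Rab8a, Rab10, Rab18, Rab20, Rab24 and Rab30 stayed called higher and Rab6b and Rab38 lower. Without the arrays that stood apart, 12 were higher and 6 lower against QSi5, and 15 higher and 5 lower against CBA/CaH, with the shares over all genes not counted. By role, 5 of 12 recycling and apical delivery genes were higher against QSi5 and 4 against CBA/CaH, with 0 lower, and of 9 regulated-secretion genes 3 were lower against QSi5 and 2 against CBA/CaH, with 0 higher. Of the 15 genes of the endoplasmic reticulum to Golgi route, 5 were higher and 4 lower against QSi5, and 4 were higher and 2 lower against CBA/CaH. With cyclic loess the recycling genes gave 3 higher and 0 lower against QSi5 and 2 higher and 1 lower against CBA/CaH, and the regulated-secretion genes 2 lower against QSi5 and 0 against CBA/CaH. Over all genes cyclic loess gave 13.1% higher and 16.4% lower against QSi5, and 12.4% higher and 15.3% lower against CBA/CaH.

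Rab18 was higher again in the intercross: it read 13.02, 12.92, 12.90, 13.07 and 12.83 on the AQ arrays and 12.38, 12.81, 13.32, 13.09 and 12.98 on the AC arrays, against 11.71 to 11.93 in QSi5 and 11.45 to 12.05 in CBA/CaH. All AIL arrays lay above all parental lactation arrays, and the differences were 1.11 (SE 0.15, adjusted p = 3.37e-05) against QSi5 and 1.19 (SE 0.15, adjusted p = 1.84e-05) against CBA/CaH. The other Rab18 probe set was higher too (3.26 against QSi5 and 3.14 against CBA/CaH). Rab8a, which carries vesicles to the apical surface, read 9.53, 9.61, 9.46, 9.65 and 9.48 on the AQ arrays and 9.40, 9.58, 9.53, 9.52 and 9.61 on the AC arrays, against 8.46, 8.82 and 8.41 in QSi5 and 8.78, 8.85 and 8.56 in CBA/CaH. The groups were fully separate, with 0.97 (SE 0.10, adjusted p = 1.84e-06) against QSi5 and 0.80 (SE 0.10, adjusted p = 1.54e-05) against CBA/CaH, but 2 other Rab8a probe sets were lower (-0.41 and -0.44 against QSi5, -0.63 and -0.48 against CBA/CaH).

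Rab30, a Golgi Rab, ranged over 6.94 to 8.56 on the AIL arrays, against 6.63 to 6.80 in QSi5 and 6.30 to 6.44 in CBA/CaH, and was higher by 0.98 (SE 0.25, adjusted p = 0.00545) against QSi5 and 1.31 (SE 0.25, adjusted p = 0.000682) against CBA/CaH. Rab20, which fell with lactation, was 1.05 (SE 0.19, adjusted p = 0.000517) higher than in QSi5 and 1.22 (SE 0.19, adjusted p = 0.000152) higher than in CBA/CaH. Rab24 was 0.92 (SE 0.16, adjusted p = 0.000341) higher than in QSi5 and 0.88 (SE 0.16, adjusted p = 0.000514) higher than in CBA/CaH. Rab10 was higher (0.67 against QSi5, 0.66 against CBA/CaH), as were Rab1b (0.62 and 0.72, in the same order), Rab1a (0.66 and 0.65) and Rab35 (0.73 and 0.55). Another Rab1a probe set was lower (-0.64 and -0.36). Against QSi5 alone Rab6a (0.79), Rab33b (0.69), Rab7b (0.55) and Rab12 (0.35) were called higher, and against CBA/CaH alone Rab32 (0.83), Rab34 (0.82), Rab4b (0.40) and Rab21 (0.48) were. Rab25 completed the members higher than both strains (0.43 against QSi5, 0.51 against CBA/CaH).

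Rab27a, which rose with lactation, read 5.42, 4.81, 4.83, 5.61 and 5.42 on the AQ arrays and 5.50, 5.01, 5.30, 5.32 and 5.32 on the AC arrays, against 6.07, 5.85 and 6.32 in QSi5 and 5.55, 5.92 and 6.09 in CBA/CaH. The difference was -0.83 (SE 0.17, adjusted p = 0.00107) against QSi5 and -0.60 (SE 0.17, adjusted p = 0.0112) against CBA/CaH, and the AIL arrays did not overlap with QSi5 and overlapped with 1 CBA/CaH array. The call against CBA/CaH was lost without CBA/CaH array 3 (-0.48, adjusted p = 0.0911). Rab38 (-0.56 against QSi5, -0.81 against CBA/CaH) and Rab6b (-0.47 and -0.63) were lower as well, and another Rab6b probe set was higher against QSi5 (0.44). Smaller differences were seen for Rab26 (-0.38 and -0.27) and Rab43 (-0.32 and -0.30). Rab3c, Rab19 and Rab39 were lower against QSi5 alone. Leaving out a single array also ended calls of Rab7b, Rab12, Rab19, Rab33b, Rab35, Rab39 and Rab43 against QSi5, and of Rab4b, Rab21, Rab26, Rab32, Rab35 and Rab43 against CBA/CaH.

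**Figure D5:**
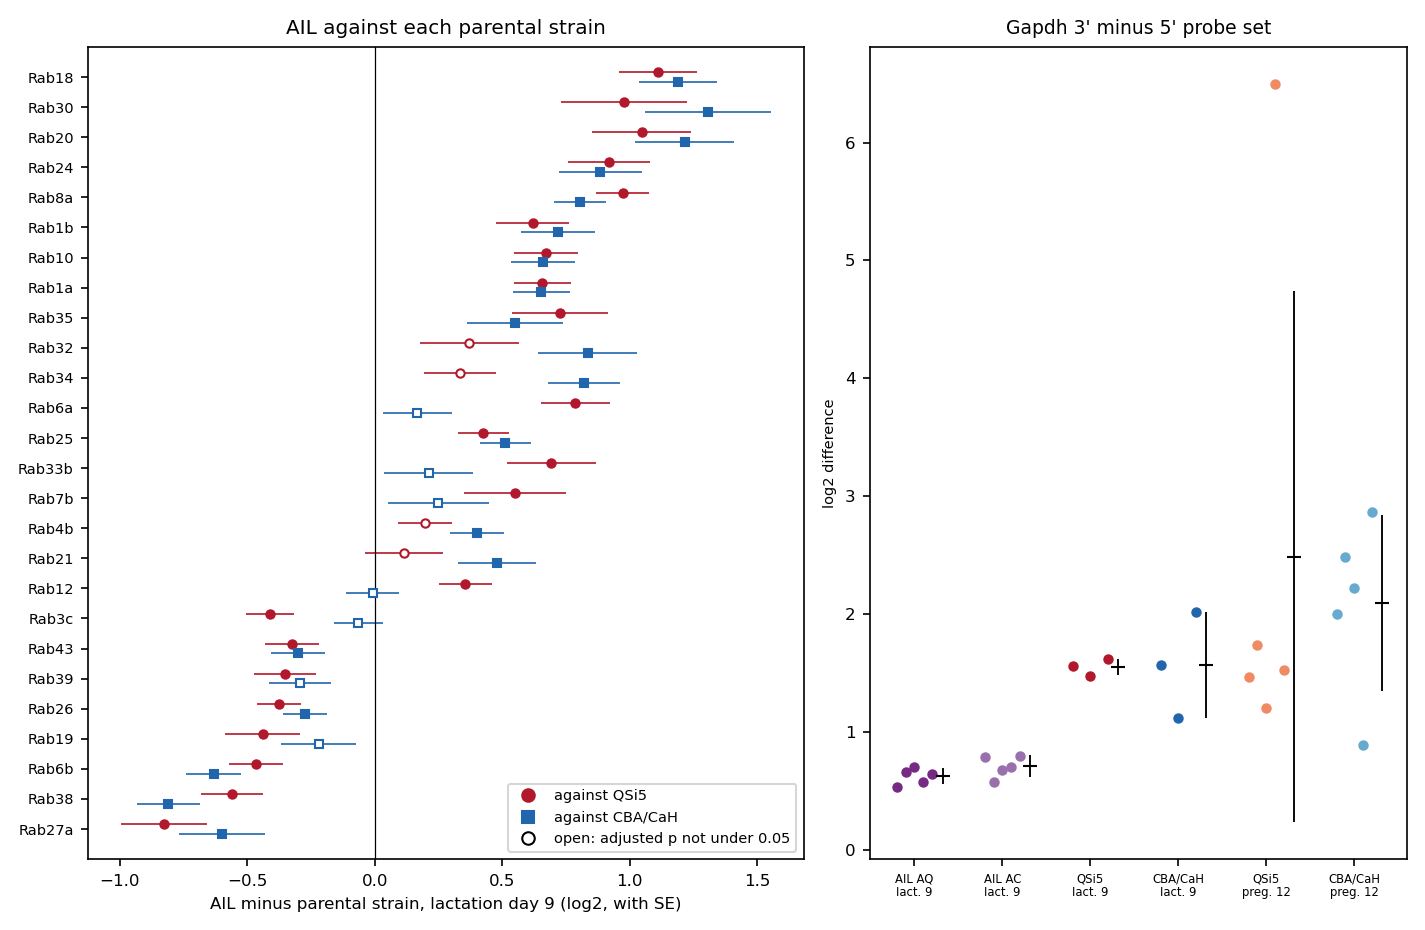
Left, AIL minus parental strain at lactation day 9 in log2 units with SE for the 26 members called in at least 1 comparison, against QSi5 (red circles) and CBA/CaH (blue squares), open where not called; right, the Gapdh 3' minus 5' value of every array with mean and SD by group. On the left Rab18 has the highest and Rab27a the lowest mean of both differences, and on the right the AIL arrays lie between 0.54 and 0.80, below all parental lactation arrays.

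RNA quality and tissue markers moved with the same contrast. The Gapdh 3' minus 5' value, a measure of how far the labelled RNA is shortened, was 0.54 to 0.80 on the AIL arrays, against 1.48 to 1.62 in QSi5 and 1.12 to 2.02 in CBA/CaH at lactation. With this value as a covariate in limma, 0 members were called against QSi5 and 0 against CBA/CaH, with 6 and 7 at an unadjusted p under 0.05 in that order. Of the 45037 probe sets, 836 were then called against QSi5 and 557 against CBA/CaH. Since the groups do not overlap in this value, its part and that of the line cannot be told apart. Of 8 fibroblast genes 7 were higher in the AIL than in QSi5 and 6 than in CBA/CaH, and of 9 white adipocyte genes 5 were higher than in QSi5 and 7 than in CBA/CaH. Of 9 macrophage and dendritic cell genes 5 were higher than in QSi5 and 7 than in CBA/CaH, and of 7 endothelial genes 4 were higher than in each. Myoepithelial genes had 5 of 10 higher and 0 lower against QSi5, and 2 higher and 1 lower against CBA/CaH; luminal genes had 4 of 11 higher and 0 lower against QSi5, and 3 higher and 2 lower against CBA/CaH. Of 6 mast cell genes 3 were lower in the AIL than in each strain, of 7 T and NK cell genes 5 were lower than in QSi5 and 1 than in CBA/CaH, and of 7 B and plasma cell genes 3 were lower than in QSi5 while 2 were higher than in CBA/CaH. The part of all these markers in the Rab differences was not tested. Over all genes 19.4% were higher and 18.5% lower against QSi5, and 18% higher and 16.2% lower against CBA/CaH. The Rab membrane cycle list had 8 of 14 genes higher than in each strain and 0 lower, led by Yipf4 (1.30 against QSi5, 1.13 against CBA/CaH). The exocyst had 6 of 9 higher than in QSi5 and 5 of 9 than in CBA/CaH, and 0 lower. Exchange factors had 11 of 37 higher and 6 lower against QSi5, and 13 higher and 3 lower against CBA/CaH, and Dennd4c was higher (1.40 against QSi5, 1.40 against CBA/CaH). GTPase-activating proteins had 12 of 39 higher and 5 lower against QSi5, and 11 higher and 6 lower against CBA/CaH, and Tbc1d4, which holds Rab10 inactive until insulin acts, was higher (1.32 against QSi5, 1.98 against CBA/CaH). Effectors had 19 of 58 higher and 3 lower against QSi5, and 14 higher and 3 lower against CBA/CaH. With quantile normalization the membrane cycle list had 4 higher and 0 lower against each strain, the exocyst 4 higher and 2 lower against QSi5 and 2 higher and 2 lower against CBA/CaH, and exchange factors 7 higher and 9 lower against QSi5 and 6 of each against CBA/CaH. GTPase-activating proteins then had 6 higher and 14 lower against QSi5 and 8 of each against CBA/CaH, and effectors 9 higher and 8 lower against QSi5 and 10 higher and 9 lower against CBA/CaH. Over all genes this scaling gave 13.5% higher and 20% lower against QSi5, and 12.2% higher and 18.6% lower against CBA/CaH.

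Between the AQ and AC arrays of the intercross, limma called 0 of 59 members and 0% of all genes. At an unadjusted p under 0.05, 2 members passed, Rab40b (0.33, SE 0.14, adjusted p = 1) and Rab42 (0.31, SE 0.12, adjusted p = 1), both higher on the AQ arrays.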

How the data were processed

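Values were analysed as deposited by the authors: log2 expression per probe set of the Affymetrix mouse genome array named in the series' design, normalized with RMA per the submitters' processing notes. The version of RMA and the scanner settings are not given in the sources used here. Total RNA was extracted with an RNeasy kit and labelled as biotinylated cRNA, per the labels' protocols. Of 45101 probe sets, 64 array controls were left out and 45037 were tested, of which 34945 carried 1 symbol in the platform annotation, 932 several and 9160 none. Deposited values ran from 2.342 to 15.13, and array medians from 4.9957 to 5.2974. The number of arrays limits the precision.

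Differences were fitted with limma 3.58.1 in R 4.3.3 (lmFit, eBayes), with the 4 parental groups in 1 model and the 4 lactation groups in another. Adjustment of p-values followed Benjamini-Hochberg, taken across the whole table of probe sets tested, and a gene was called at an adjusted p under 0.05. The 8 comparisons were tested with no further adjustment across comparisons. The fit was tested on simulated data. Background percentages are over 18193 genes, each read from its probe set with the highest mean. The members, roles, gene lists and alternatives were chosen with earlier results of these data known. Genes named for the stage comparison were the 10 highest and 10 lowest mean differences among members called the same way in both strains and a set of well-studied members; for the other comparisons they were the called members, up to 12 by size; for each gene list they were up to 4 called and 2 not called. Genes named beyond this complete the account of the members and were chosen after their values were seen. An array stood apart where its Gapdh 3' minus 5' value or its median skeletal muscle, brown adipocyte or B and plasma cell marker lay more than 1 above the median of its group; the other marker lists were not part of this rule. Alternatives changed the scaling, the filter on low means, the variance model, the arrays in the fit, array weights, the probe set read, a Gapdh covariate, the replicate block, and each array in turn.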

Additional observations from a re-analysis of the deposited data

Results flagged for a closer look

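Each array was set against the others of its group, in groups of 5, by the gap to the nearest array as a share of the group's range. Of 236 such sets, 18 had an array past the critical value of Dixon's test, over 15 genes; chance gives about 1 in 20. No explanation was tested for any of them.

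AIL arrays stood apart 6 times. On AC array 1, Rab30 read 8.23 (the others 7.21 to 7.44) and Rab42 read 5.29 (4.9 to 4.97). On AC array 2, Rab40b read 5.07 (4.57 to 4.65), and on AC array 3, Rab8b read 6.64 (6.21 to 6.33). On AQ array 4, Rab38 read 6.02 (6.24 to 6.32), and on AQ array 5, Rab42 read 5.67 (5.17 to 5.3).

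Pregnant QSi5 array 4, which also had a Gapdh 3' minus 5' value of 6.497, carried 7 of the 18. Secretory and lipid droplet genes were among them: Rab27a read 5.7 there (the others 4.28 to 4.58), Rab27b 3.19 (4.48 to 4.86) and Rab18 8.51 (9.99 to 10.3). Genes of apical delivery were Rab8a at 8.26 (9.05 to 9.33) and Rab25 at 7.86 (8.88 to 9.0). The endosomal gene Rab17 read 9.22 (8.08 to 8.39), and Rab42 read 7.28 (6.31 to 6.58). On pregnant QSi5 array 5, Rab22a read 6.33 (7.87 to 8.16).

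Among pregnant CBA/CaH arrays, array 1 had Rab13 at 7.32 (6.97 to 7.02), array 2 had Rab17 at 9.09 (8.35 to 8.5) and Rab39 at 4.04 (3.45 to 3.61), and array 4 had Rab31 at 7.67 (6.69 to 6.89).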

How the results depend on the processing

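Counts at lactation moved with the scaling, as did the shares over all genes. Lower members in QSi5 numbered 13 with quantile normalization and 15 with cyclic loess, and lower members in CBA/CaH 11 and 12. Higher members in QSi5 numbered 11 with array medians set equal. The strain count at pregnancy was 1 with quantile normalization, cyclic loess, a mean of at least 5, the trend and robust variance model, only the compared groups, or without the arrays that stood apart, and 4 with array weights. The count against CBA/CaH in the AIL was 12 with all 26 arrays in 1 fit, and with the Gapdh covariate it was 0, as it was 0 against QSi5. The cause of these moves was not tested.

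Leaving out 1 array at a time gave 15 to 19 higher and 21 to 26 lower members in QSi5, 11 to 16 higher and 18 to 24 lower in CBA/CaH, 1 to 2 between the strains at pregnancy, 18 to 22 in the AIL against QSi5 and 13 to 20 against CBA/CaH. It gave 0 at every turn for the strains at lactation, the interaction and AQ against AC. The shares over all genes were not counted in these fits. Replicate numbers were not taken to pair the samples in the main fits. Of 37 same-numbered pairs, 7 correlated over 0.1 (range -0.426 to 0.316). Among these were 4 of the 5 pairs of AQ and AC arrays with the same number, where the lowest was 0.007. The highest were those of arrays 4 (0.316) and 5 (0.244). What AQ and AC arrays of the same number share was not tested, and the main fits took them as separate. A factor for AIL arrays 1 to 3 against 4 and 5 of each code gave 22 called members against QSi5, 20 against CBA/CaH and 0 between AQ and AC. With the replicate block the strain count at pregnancy was 1.

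Over members and settings, 10643 values kept their call or lack of one, 313 lost a call, 167 gained one and 39 turned sign. The 39 had a call as deposited or in the setting. Values called in neither counted among the 10643 whatever their sign. Rab9b in CBA/CaH was an example, at 0.16 as deposited and -0.11 to -0.01 under the 3 other scalings. The 39 are thus not all the changes of sign, and they are listed here. In QSi5 with stage, quantile normalization gave Rab4a 0.207, Rab4b 0.55, Rab7 0.294, Rab9 0.589, Rab11a 0.141, Rab25 0.724 and Rab28 0.14, and cyclic loess gave Rab4a 0.21, Rab4b 0.424, Rab7 0.29, Rab9 0.569, Rab11a 0.113, Rab25 0.678 and Rab28 0.067. The mean of all probe sets gave Rab8a 0.389, Rab22a -0.037 and Rab38 -0.027, and probe sets without a suffix gave Rab12 0.175 and Rab38 -0.648. In CBA/CaH, quantile normalization gave Rab4a 0.108, Rab7 0.357, Rab8a 0.64, Rab11a 0.518 and Rab17 0.074, and cyclic loess gave Rab4a 0.113, Rab7 0.359, Rab8a 0.637, Rab11a 0.504 and Rab17 0.015. The mean of all probe sets gave Rab8a 0.599 and Rab40b -0.304, and the probe set without a suffix gave Rab38 -0.545. In the AIL against QSi5, quantile normalization gave Rab14 -0.292 and probe sets without a suffix gave Rab12 -0.091 and Rab38 0.063. Against CBA/CaH, the mean of all probe sets gave Rab8a -0.101 and Rab31 -0.315, the probe set without a suffix gave Rab11a 0.595, and the Gapdh covariate gave Rab32 -0.217. The cause was not tested. A fit of only the compared groups could not be made for the interaction, which already holds all 4 groups. Dim probe sets and 3 lactation arrays per parental strain limit the smaller differences.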
